A study of Mus musculus with 8 samples.

Results

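Classical estrogen receptor target genes are genes first known because estradiol raises their mRNA through estrogen receptor alpha, mostly in human breast cancer cells. The set described here holds Greb1, Pdzk1, Nrip1, Slc9a3r1, Xbp1, Siah2, Stc2, Myb, Elovl2 and Tff1, chosen by symbol, and all 10 have a row among the 24963 genes of the deposited table. Whole uterine tissue was collected at gestation day 3.5 (GD3.5) and gave 4 Nr2f2 f/f and 4 Nr2f2 d/d libraries, from females of the strain given as C57B6/J, mated at 8 weeks of age. Both groups carry the Nr2f2 flox/flox alleles, and the Nr2f2 f/f mice, which the genotype label calls WT, have no Cre. The Nr2f2 d/d mice also carry Cre knocked into 1 Pgr allele, which removes Nr2f2 from cells that express Pgr, so that the loss of Nr2f2 and the presence of the Cre allele cannot be told apart. The males had been vasectomized, so the tissue held no embryos.

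Estradiol binds estrogen receptor alpha, encoded by Esr1, and the receptor then binds DNA at estrogen response elements and recruits coregulators to the genes it controls. In the uterus before implantation estrogen drives the epithelium to divide and to secrete, and progesterone, acting through its receptor in stroma and epithelium, holds this response back. NR2F2 is an orphan nuclear receptor of the uterine stroma and muscle. The comparison asks whether mRNAs known to answer to the estrogen receptor differ in abundance when Nr2f2 is removed.

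The libraries held about 61150000 to 92700000 fragments, an estimate from the totals at which most low values of short genes of 1 exon come out as whole fragments. It is least certain for Nr2f2 f/f replicate 4, where a total further off gave 87.4% of whole values beside 87.6% at the total used. Values are FPKM, that is, fragment counts corrected for gene length and library total. The mRNA abundance of Nr2f2 was 24.1 ± 1.80 FPKM in Nr2f2 f/f and 8.93 ± 1.36 FPKM in Nr2f2 d/d (SD, n = 4 each), and every Nr2f2 d/d library was below every Nr2f2 f/f library. The first principal component held 41.9% of the variance, with weights of 0.36 and 0.69 for Nr2f2 f/f replicates 1 and 2, of -0.36, -0.26 and -0.45 for Nr2f2 d/d replicates 1 to 3, and near 0 for the other 3 libraries. Without Nr2f2 f/f replicates 1 and 2 together, a choice made after the data were seen, 23 genes passed the adjusted test in place of 375, and the targets that pass or that turn in direction are given with and without both. The labels do not say whether a library came from 1 mouse or a pool, so p-values measure the spread between libraries.

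The sequence just before the transcription start is shown for Greb1 and Slc9a3r1, whose mRNAs passed the adjusted test, and for Nrip1, as 250 bases from RefSeq on GRCm38.p6 (mm10), 5′ to 3′ on the strand of the gene. Capitals mark 1 arm of an estrogen response element, GGTCA or its reverse complement TGACC, a sequence that NR2F2 and other nuclear receptors also bind.
Greb1, chr12:16800887-16801136, minus strand: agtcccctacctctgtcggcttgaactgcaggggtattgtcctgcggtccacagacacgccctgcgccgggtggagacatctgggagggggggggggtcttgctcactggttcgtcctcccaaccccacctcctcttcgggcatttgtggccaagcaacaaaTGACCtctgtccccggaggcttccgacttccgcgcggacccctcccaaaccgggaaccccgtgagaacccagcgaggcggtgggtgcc
Slc9a3r1, chr11:115163091-115163340, plus strand: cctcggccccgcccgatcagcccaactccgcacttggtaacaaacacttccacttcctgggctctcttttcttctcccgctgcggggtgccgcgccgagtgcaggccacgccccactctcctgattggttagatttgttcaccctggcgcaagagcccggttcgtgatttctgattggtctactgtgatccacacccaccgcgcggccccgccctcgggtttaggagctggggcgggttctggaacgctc
Nrip1, chr16:76373828-76374077, minus strand: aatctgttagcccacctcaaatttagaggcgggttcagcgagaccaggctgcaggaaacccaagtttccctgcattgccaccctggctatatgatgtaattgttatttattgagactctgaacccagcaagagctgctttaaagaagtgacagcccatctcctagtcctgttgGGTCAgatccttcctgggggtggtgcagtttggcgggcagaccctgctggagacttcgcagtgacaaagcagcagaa
The Greb1 window has 1 such arm, which starts 88 bases before the start and reads GGTCA on the opposite strand. The Nrip1 window has 1, at 77 bases, and the Slc9a3r1 window has 0. Of the 10 genes, 8 have windows in the RefSeq table, 12 windows in all, and 4 of these windows (33.3%) hold an arm on either strand, those of Greb1 (both windows), Nrip1 and Pdzk1. Among all 32851 windows of that length, 35.2% hold one, so the share among the classical targets is near that of all promoters. The full palindrome, GGTCA, then 3 bases of any kind, then TGACC, contains the arm and is in 0 of the 12 windows and in 0.0639% of all. The longer arm AGGTCA, which also contains GGTCA, is in 14% of all windows, and among these genes in the first windows of Greb1 and Pdzk1. Siah2 and Tff1 are not in the table.

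Greb1 and Slc9a3r1 rose in the Nr2f2 d/d uterus and passed the adjusted test. With 1 library left out, Greb1 kept that call in 1 of 8 fits and Slc9a3r1 in 6. The lowest Nr2f2 d/d value of Stc2 and of Myb was above the highest Nr2f2 f/f value, but neither gene passed the adjusted test. Nrip1, Pdzk1, Siah2 and Xbp1 overlapped between the genotypes. Elovl2 and Tff1 were too low to be tested. The groups were compared on log2 of FPKM plus 0.5 with limma, with Benjamini-Hochberg adjustment over the 14323 genes whose mean was at least 0.5 FPKM, and 8 of the 10 genes were among them. Of these 8, 2 passed an adjusted p of 0.05, both higher, beside 2.62% of all genes tested, 1.09% higher and 1.53% lower. Of the 375 genes called in all, 156 were higher, and with median-ratio scaling 192 of 364 were. The study's methods set a threshold of p under 0.05 before adjustment with a fold of 1.4 or more, and 4 of the 8 genes met it, all higher, beside 8.8% of all genes, 4.7% higher and 4.1% lower. An unadjusted p under 0.05 from limma was found for 5 of the 8, the fifth being Nrip1, and for 21.2% of all genes. For 4 of the 8 genes the groups did not overlap, all higher, against 15.4% of all genes tested, 5.49% higher and 9.91% lower. The median log2 fold change of the 8 was 0.50 and that of all genes tested -0.02, and 7 of the 8 lay above 0, beside 46.7% of all genes. In whole tissue, fewer cells of a type and less mRNA per cell cannot be told apart.

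**Figure D1:**
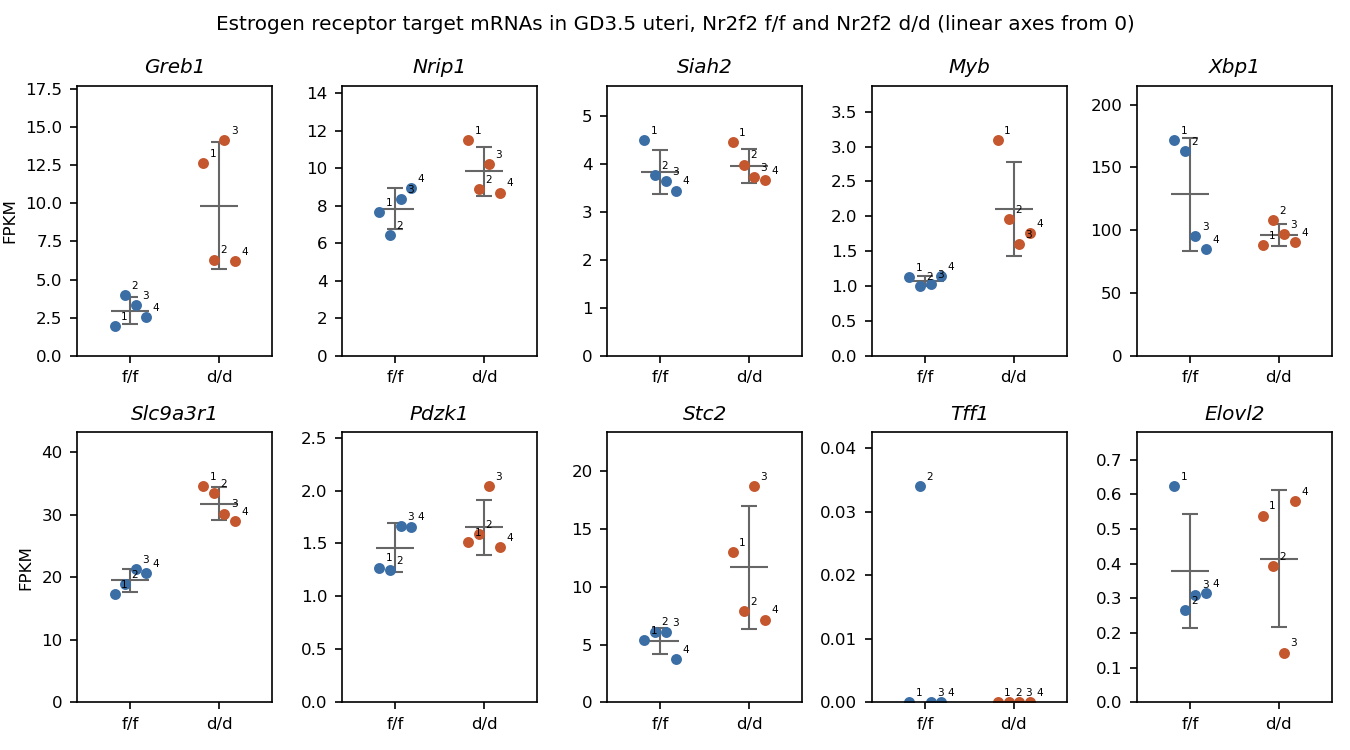
FPKM of the 10 classical targets (linear axes from 0) in 4 Nr2f2 f/f (blue) and 4 Nr2f2 d/d (orange) libraries, 1 point per library with its replicate number, with the mean and SD as bars except for Tff1. For Greb1, Slc9a3r1, Stc2 and Myb the lowest orange point is above the highest blue point, and Xbp1 is at 172 and 163 FPKM in Nr2f2 f/f replicates 1 and 2 and at 108 FPKM or less elsewhere.

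Greb1 encodes a chromatin-bound coactivator that associates with the estrogen receptor, and its locus in mm10 (GENCODE vM21) spans 16670615 to 16800886 of chromosome 12, minus strand. Greb1 mRNA stood at 1.94, 3.98, 3.35 and 2.56 FPKM in Nr2f2 f/f replicates 1 to 4. In Nr2f2 d/d replicates 1 to 4 it stood at 12.6, 6.30, 14.1 and 6.23 FPKM. The groups did not overlap, and the Nr2f2 d/d libraries fell into a higher pair, replicates 1 and 3, and a lower pair, replicates 2 and 4. The mean was 2.96 ± 0.894 FPKM in Nr2f2 f/f and 9.82 ± 4.15 FPKM in Nr2f2 d/d (SD, n = 4 each), 3.32 times as high. This was a log2 difference of 1.52 (95% confidence interval 0.81 to 2.24, adjusted p = 0.0470 from limma), the 92nd largest increase among the genes tested. Greb1 passed the adjusted test in only 1 of the 8 fits with 1 library left out, that without Nr2f2 d/d replicate 4 (0.0446), and the adjusted p was 0.0523 to 0.122 in the others. The log2 fold change stayed between 1.33 and 1.70 in these fits, and it was 1.496 without Nr2f2 f/f replicates 1 and 2 (adjusted p = 0.154 from limma). At the exon length of GENCODE the values stood for about 1165 to 12554 fragments per library. A transcript on the opposite strand, Gm48140, shares 7.68% of the exon bases of Greb1, and the strand setting of the counting is not given in the sources used here.

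Nrip1 encodes RIP140, a corepressor that the liganded estrogen receptor binds and whose gene estradiol induces. Its locus spans 76287400 to 76373827 of chromosome 16, minus strand. Its values were 7.64, 6.42, 8.36 and 8.95 FPKM in Nr2f2 f/f replicates 1 to 4. In Nr2f2 d/d they were 11.5, 8.90, 10.2 and 8.70 FPKM. Nr2f2 d/d replicates 1 and 3 were above all Nr2f2 f/f libraries, and replicates 2 and 4 lay within the range of Nr2f2 f/f. On the log2 scale the difference was 0.31 (95% confidence interval 0.02 to 0.60, adjusted p = 0.211 from limma, exact permutation p = 0.0857), below the fold of 1.4 in the threshold of the study, and it was 0.17 without Nr2f2 f/f replicates 1 and 2. Siah2, a ubiquitin ligase that marks the corepressor NCOR1 and other proteins for degradation, had 4.50, 3.76, 3.64 and 3.44 FPKM in Nr2f2 f/f and 4.44, 3.98, 3.72 and 3.66 FPKM in Nr2f2 d/d. All 4 Nr2f2 d/d values lay inside the range of Nr2f2 f/f. The log2 fold change of Siah2 was 0.04, with a 95% confidence interval from -0.19 to 0.27 (adjusted p = 0.853 from limma).

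Myb encodes a transcription factor of proliferating progenitor cells that estradiol induces in breast cancer cells, and spans 21124935 to 21160984 of chromosome 10, minus strand. Its mRNA was low, at 1.13, 0.997, 1.03 and 1.14 FPKM in Nr2f2 f/f replicates 1 to 4. In Nr2f2 d/d it was 3.10, 1.96, 1.60 and 1.76 FPKM. The Nr2f2 f/f libraries were close to each other, all 4 Nr2f2 d/d libraries were higher, and replicate 1 was the highest. The log2 fold change was 0.69 (95% confidence interval 0.31 to 1.08, adjusted p = 0.0707 from limma, exact permutation p = 0.0286, the smallest that 4 against 4 can give). Because the level is near the 0.5 FPKM added before the log, this understates the ratio of the means, 1.96. It did not pass the adjusted test in any of the 8 fits that left out 1 library (adjusted p 0.0704 to 0.165). Myb is also active in immature blood cells. The 14 leukocyte markers summed to 45.3 to 79.1 FPKM in Nr2f2 f/f and 91.4 to 173 FPKM in Nr2f2 d/d, while the mean log2 value of the 10 tested overlapped, at 1.95 to 2.63 and 2.47 to 3.08, and 0 of the 14 was at 0 in all libraries. Jchain, the joining chain of secreted antibodies, had 13.7 ± 7.88 FPKM in Nr2f2 f/f and 72.8 ± 32.2 FPKM in Nr2f2 d/d (SD, n = 4 each, adjusted p = 0.0510 from limma). None of the 10 leukocyte markers tested passed an adjusted p of 0.05 in limma. Of the 10, Jchain, Cd3e and Cd3g had an unadjusted p under 0.05 and met the threshold of the study, as did 8.8% of all genes tested. The part of leukocytes in the Myb values was not tested.

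Xbp1 encodes a transcription factor that equips secretory cells, and whose spliced form carries out part of the unfolded protein response. Its locus spans 5520659 to 5525893 of chromosome 11, plus strand. Nr2f2 f/f replicates 1 to 4 held 172, 163, 95.1 and 85.2 FPKM. Nr2f2 d/d replicates 1 to 4 held 88.3, 108, 97.1 and 90.5 FPKM. The Nr2f2 f/f group fell into a high pair and a low pair, and all 4 Nr2f2 d/d libraries lay below the high pair and within the range of Nr2f2 f/f. On the log2 scale Xbp1 differed by -0.36 (95% confidence interval -0.90 to 0.18, adjusted p = 0.412 from limma), and by 0.09 without Nr2f2 f/f replicates 1 and 2 (adjusted p = 0.741 from limma). In the same order of libraries, the mean log2 value of the 8 gland markers was 4.28, 4.67, 3.09 and 2.69 in Nr2f2 f/f and 1.52, 2.05, 1.82 and 2.90 in Nr2f2 d/d. The high pair for Xbp1 also had the highest mean of the gland markers of its group, but not of each marker. The list includes Spink1, a trypsin inhibitor gene, at 115 to 1332 FPKM in Nr2f2 f/f and 0.729 to 24.4 FPKM in Nr2f2 d/d, the only gland marker that passed the adjusted test (log2 fold change -5.93, adjusted p = 0.0292 from limma). Spink1 kept its call in 2 of the 8 fits with a library left out, those without Nr2f2 f/f replicate 2 or Nr2f2 d/d replicate 4, the adjusted p reached 0.0895 in the others, and without Nr2f2 f/f replicates 1 and 2 the log2 fold change was -4.85 (adjusted p = 0.130 from limma). Foxa2, the transcription factor that defines uterine glands, was lowest in that pair, at 5.15, 3.24, 7.74 and 6.96 FPKM in Nr2f2 f/f. The same held for Cxcl15, a chemokine gene of the glands, at 6.83, 1.18, 17.6 and 13.4 FPKM. None of the 8 gland markers was at 0 in all libraries. The part of glands in the Xbp1 values was not tested. FPKM are summed over the gene and cannot tell spliced from unspliced Xbp1. Of 20 genes of the unfolded protein response, 0 passed an adjusted p of 0.05 in limma and 0 met the threshold of the study, with a median log2 fold change of 0.07 and 1 unadjusted p under 0.05, that of Sec61b. Hspa5, the main chaperone of the endoplasmic reticulum, was at 201 ± 26.2 FPKM in Nr2f2 f/f and 221 ± 77.2 FPKM in Nr2f2 d/d (SD, n = 4 each). Dnajb9, a chaperone gene that XBP1 induces, was at 26.2, 39.3, 18.7 and 17.5 FPKM in Nr2f2 f/f, and at 17.9 to 25.6 FPKM in Nr2f2 d/d. Sdf2l1, another chaperone gene of the endoplasmic reticulum, was at 15.7, 28.4, 13.5 and 18.8 FPKM in Nr2f2 f/f and at 16.3 to 32.4 FPKM in Nr2f2 d/d. Replicate 1 was thus among the highest pair of Nr2f2 f/f for Dnajb9, as for Xbp1, but not for Sdf2l1.

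Slc9a3r1 encodes NHERF1, a scaffold with PDZ domains that ties transporters and receptors to ezrin under the apical membrane of epithelial cells. The gene spans 115163341 to 115181181 of chromosome 11, plus strand, and 0% of its exon bases are shared with another annotated gene. Slc9a3r1 mRNA stood at 17.3, 18.9, 21.3 and 20.7 FPKM in Nr2f2 f/f replicates 1 to 4. In Nr2f2 d/d replicates 1 to 4 it stood at 34.5, 33.4, 30.2 and 29.0 FPKM. The spread within each group was small beside the gap between them, and the lowest Nr2f2 d/d value was well above the highest Nr2f2 f/f value. The mean rose from 19.5 ± 1.82 to 31.8 ± 2.61 FPKM (SD, n = 4 each), 1.63 times as high, with a log2 fold change of 0.69 (95% confidence interval 0.48 to 0.90, adjusted p = 0.0149 from limma). It ranked 51st of 14323 by p. Leaving out Nr2f2 d/d replicate 1 gave an adjusted p of 0.0561 and leaving out replicate 2 gave 0.0634, and it was under 0.05 in the other 6 fits that left out 1 library. Without Nr2f2 f/f replicates 1 and 2 the difference was 0.58 (adjusted p = 0.0703 from limma).

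Pdzk1 encodes NHERF3, a related scaffold that holds the HDL receptor SCARB1 at the membrane. Its values were 1.27, 1.25, 1.66 and 1.66 FPKM in Nr2f2 f/f and 1.52, 1.59, 2.04 and 1.47 FPKM in Nr2f2 d/d. Only Nr2f2 d/d replicate 3 was above all Nr2f2 f/f libraries. Its log2 fold change was 0.13, with a 95% confidence interval from -0.16 to 0.43 (adjusted p = 0.577 from limma). Genes on the opposite strand, Cd160, 4930442L01Rik and Gpr89, share 41.7% of the exon bases of Pdzk1, so its values are uncertain. Among 12 genes of proteins that these scaffolds bind, 9 were tested and 1 passed the adjusted test, beside 2.62% of all genes tested. Without Nr2f2 f/f replicate 2 this count became 3, beside 2.42% of all genes tested. Scarb1 was at 37.4 ± 6.26 FPKM in Nr2f2 f/f and fell to 17.8 ± 3.07 FPKM in Nr2f2 d/d (SD, n = 4 each), by 1.05 on the log2 scale (adjusted p = 0.0192 from limma). That call was lost without Nr2f2 f/f replicate 1, Nr2f2 d/d replicate 1 or 2 (adjusted p up to 0.0656), and the log2 fold change was -0.84 without Nr2f2 f/f replicates 1 and 2 (adjusted p = 0.0903 from limma). Ezr, which encodes ezrin, had 88.3 ± 14.1 FPKM in Nr2f2 f/f and 115 ± 11.0 FPKM in Nr2f2 d/d (SD, n = 4 each, adjusted p = 0.129 from limma), and Msn, its relative moesin, 79.4 ± 14.0 and 58.4 ± 4.70 FPKM (adjusted p = 0.126 from limma).

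Stc2 encodes stanniocalcin 2, a secreted glycoprotein that inhibits the protease PAPP-A, and spans 31357307 to 31370074 of chromosome 11, minus strand. Nr2f2 f/f replicates 1 to 4 had 5.37, 6.12, 6.10 and 3.73 FPKM. Nr2f2 d/d replicates 1 to 4 had 13.0, 7.90, 18.7 and 7.18 FPKM. The groups did not overlap, and Nr2f2 d/d replicates 1 and 3 were again the high pair, as for Greb1. The means were 5.33 ± 1.124 and 11.7 ± 5.34 FPKM (SD, n = 4 each), with a ratio of 2.19 and a log2 fold change of 0.99 (95% confidence interval 0.30 to 1.67, adjusted p = 0.118 from limma, exact permutation p = 0.0286). It met the threshold of the study in the fit of all libraries and in each of the 8 fits that left out 1, and did not pass the adjusted test in any of these. Tff1, a trefoil peptide of mucous epithelia and the best known estrogen-induced gene of breast cancer cells, was at 0 in 7 libraries and at 0.034 FPKM in Nr2f2 f/f replicate 2, which comes to 1.46 fragments at the exon length of GENCODE, so that the length or the library total behind the deposited value may differ from those used here. Gm15318, on the opposite strand, shares 31.4% of the exon bases of Tff1, so limits that rest on the full exon length are uncertain. At that length a count of 0 allows up to 0.0460 to 0.0692 FPKM in the Nr2f2 d/d libraries (3 fragments, counting error only). If the 0.034 FPKM stands for 1 whole fragment, it allows up to 0.0673 to 0.101 FPKM. A Tff1 mRNA was therefore not detectable at this depth in Nr2f2 d/d. Its relatives Tff2 and Tff3 were also under 0.5 FPKM in every library.

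Elovl2, an enzyme that elongates polyunsaturated fatty acids, was below the mean of 0.5 FPKM needed for the test. Its values were 0.623, 0.266, 0.311 and 0.316 FPKM in Nr2f2 f/f and 0.539, 0.393, 0.144 and 0.581 FPKM in Nr2f2 d/d, about 53 to 209 fragments per library. The groups overlapped, with the lowest value in Nr2f2 d/d and the highest in Nr2f2 f/f (exact permutation p = 0.771). The elongases that were tested included Elovl5, at 108 ± 19.6 FPKM in Nr2f2 f/f and 153 ± 46.2 FPKM in Nr2f2 d/d (SD, n = 4 each, adjusted p = 0.287 from limma), and Elovl6, at 5.12 ± 0.605 and 3.64 ± 0.625 FPKM (adjusted p = 0.102 from limma).

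**Figure D2:**
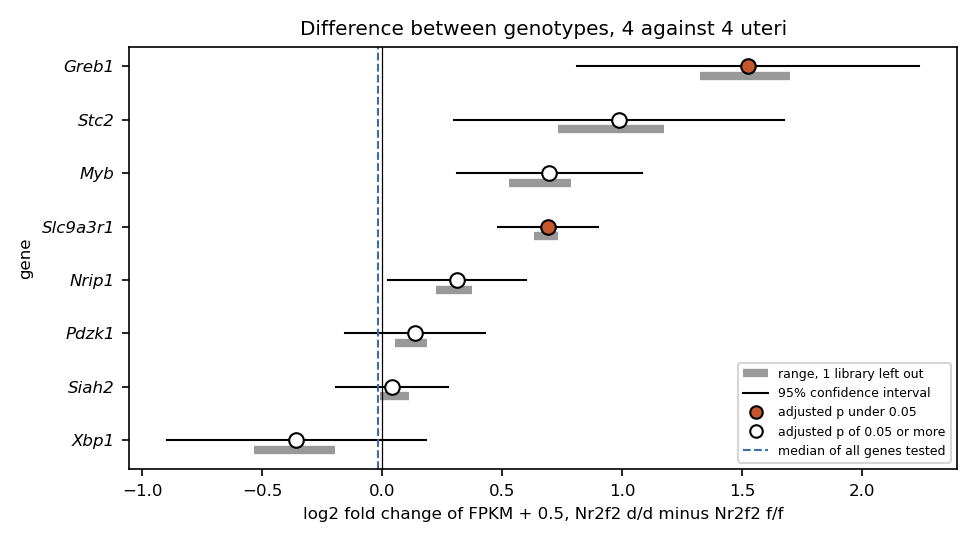
Log2 fold change of FPKM plus 0.5, Nr2f2 d/d minus Nr2f2 f/f, for the 8 classical targets tested (points, filled where the adjusted p is under 0.05), with 95% confidence intervals (black) and the range over the 8 fits that left out 1 library (grey). Intervals of Greb1, Stc2, Myb, Slc9a3r1 and Nrip1 lie above 0, and those of Pdzk1, Siah2 and Xbp1 include 0.

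In Nr2f2 f/f the order of mean FPKM, which are per length, was Xbp1 (129), Slc9a3r1 (19.5), Nrip1 (7.84), Stc2 (5.33), Siah2 (3.83), Greb1 (2.96), Pdzk1 (1.46), Myb (1.07), Elovl2 (0.379) and Tff1 (0.0085). Xbp1 was above 97.8% of the genes tested and Greb1 above 23.3%. The ranges of Stc2 and Siah2 overlapped, and so did those of Siah2 and Greb1, while all other neighbours were apart in these 4 libraries. In Nr2f2 d/d, Greb1 (9.82) moved level with Nrip1 (9.83), Stc2 (11.7) stood above both with overlapping ranges, and Greb1 was above Siah2 (3.95) in 4 of 4 libraries. Myb (2.10) passed Pdzk1 (1.65) in the order, with ranges that overlapped.

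Most of these genes are known from epithelial cells, so each was also set against 12 epithelial markers that are not among them. The mean log2 value of these markers was 4.92 to 5.49 in Nr2f2 f/f and 5.33 to 5.65 in Nr2f2 d/d, a difference of 0.29 with overlapping groups (exact permutation p = 0.114). Of the 12 markers, 9 were higher and 3 lower, and 1 rose at an adjusted p of 0.05, Elf3, an epithelial transcription factor, from 19.99 ± 5.96 to 54.4 ± 16.3 FPKM (SD, n = 4 each, adjusted p = 0.0415 from limma). Elf3 kept its call in 2 of the 8 fits with a library left out, those without Nr2f2 f/f replicate 2 or Nr2f2 d/d replicate 4, and the adjusted p reached 0.112 in the others. Without Nr2f2 f/f replicates 1 and 2 its log2 fold change was 1.09 in place of 1.43 (adjusted p = 0.145 from limma). Taking the mean of the 12 markers off lowers every difference by the same 0.29 and changes the spread. Greb1 then still differed by 1.24, with groups apart (exact permutation p = 0.0286). Slc9a3r1 differed by 0.40, Stc2 by 0.70 and Myb by 0.41, each with overlapping groups (exact permutation p = 0.0857 for each). Nrip1 differed by 0.02 and Pdzk1 by -0.15. Xbp1 was above the mean of the markers in every library, but by less in Nr2f2 d/d than in Nr2f2 f/f. Its difference was -0.65, with groups apart (exact permutation p = 0.0286). Siah2 had a difference of -0.25 (exact permutation p = 0.114). On this scale the groups did not overlap for 2 of the 8 genes, Greb1 and Xbp1, beside 20.9% of all genes tested. The mean log2 value of 10 stromal markers was 6.41 to 6.61 in Nr2f2 f/f and 6.74 to 7.36 in Nr2f2 d/d, but single markers went both ways, 6 above 0 and 4 below, with 6 higher and 2 lower at the threshold of the study, and 2 past the adjusted test, Dcn and Col1a2, both higher and both genes of the extracellular matrix (adjusted p = 0.0192 and 0.0484 from limma). At the threshold of the study 4.7% of all genes tested were higher and 4.1% lower. The mean of 7 endothelial markers was 4.58 to 5.10 and 4.08 to 4.36, with 6 of the 7 lower at that threshold. Of these, 4 fell at an adjusted p of 0.05, the endothelial surface protein genes Cdh5, Pecam1, Emcn and Kdr (adjusted p = 0.0149, 0.0192, 0.0302 and 0.0457 from limma). The count was 0 to 4 when single libraries were left out, 0 without Nr2f2 f/f replicate 1 or Nr2f2 d/d replicate 1 or 2, 2 without Nr2f2 f/f replicate 2 or 4 or Nr2f2 d/d replicate 4, and 0 without Nr2f2 f/f replicates 1 and 2 together, where the stromal count was 0 as well. With single libraries left out the stromal count was 0 to 4, with 0 without Nr2f2 f/f replicate 1 or 4 or Nr2f2 d/d replicate 1 or 2, 1 without Nr2f2 f/f replicate 2 or 3, and 4 without Nr2f2 d/d replicate 4. The 8 smooth muscle markers overlapped (6.69 to 7.17 and 6.45 to 7.69), as did the 5 markers of ovary and oviduct tested (3.08 to 3.34 and 2.75 to 3.69). The part of these cell types in the values of the classical targets was not tested.

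**Figure D3:**
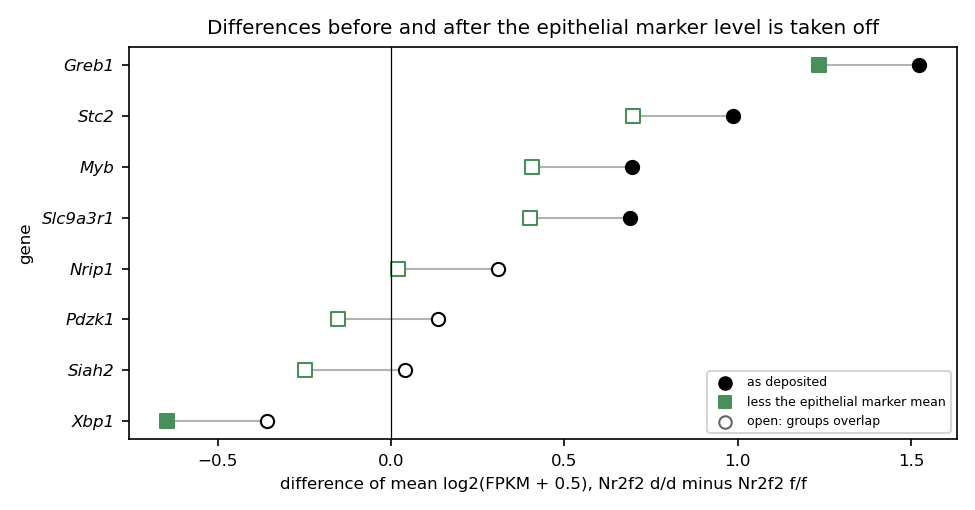
Difference of mean log2(FPKM + 0.5), Nr2f2 d/d minus Nr2f2 f/f, for 8 classical targets as deposited (circles) and after the mean of 12 epithelial markers is taken off in each library (squares), open where the groups overlap. Greb1 stays apart at 1.24, and Xbp1 reaches -0.65.

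Neither the receptor nor any of its listed partners passed the adjusted test. Esr1 had 31.4, 37.2, 34.6 and 31.1 FPKM in Nr2f2 f/f and 42.7, 38.3, 49.2 and 37.2 FPKM in Nr2f2 d/d, a log2 fold change of 0.31 (95% confidence interval 0.07 to 0.55, adjusted p = 0.151 from limma), and 3 of 4 Nr2f2 d/d libraries were above every Nr2f2 f/f library. Esr2, the beta receptor, was at 0.077 FPKM or less in every library. Pgr, the progesterone receptor gene and itself an estrogen receptor target, had 19.3 ± 6.30 FPKM in Nr2f2 f/f and 26.4 ± 5.67 FPKM in Nr2f2 d/d (SD, n = 4 each, adjusted p = 0.318 from limma). Of 17 genes of receptors and coregulators 15 were tested, 0 passed an adjusted p of 0.05 and 0 met the threshold of the study. An unadjusted p under 0.05 in limma was found for 4, Esr1, Ncoa1, Med1 and Gata3, and for 21.2% of all genes tested. Among the 15, the unadjusted p in limma was smallest for Ncoa1 (0.00960), a coactivator, and Med1 (0.0102), a subunit of the Mediator complex. Their log2 fold changes were -0.22 and -0.23. Both were lower in every Nr2f2 d/d library than in any Nr2f2 f/f library, as were 9.91% of all genes tested. Foxa1, a pioneer factor that opens the estrogen receptor's sites in breast cancer cells, was at 0 in the Nr2f2 f/f libraries and at most at 0.007 FPKM in Nr2f2 d/d.

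Of 30 other estrogen receptor targets known from breast cancer cells, 28 were tested, with a median log2 fold change of -0.01, 14 above 0 and 14 below. Krt8, a keratin of simple epithelia, was at 114 ± 6.31 FPKM in Nr2f2 f/f and rose to 192 ± 16.2 FPKM in Nr2f2 d/d (SD, n = 4 each), by 0.74 on the log2 scale (adjusted p = 0.00829 from limma). Rerg, which encodes a small GTPase, was at 2.00 ± 0.480 FPKM in Nr2f2 f/f and rose to 4.46 ± 0.879 FPKM in Nr2f2 d/d (SD, n = 4 each), by 0.99 on the log2 scale (adjusted p = 0.0272 from limma). Myc, a proliferation gene, went the other way and fell to 29.0 ± 2.62 from 55.8 ± 7.67 FPKM (SD, n = 4 each), by 0.93 on the log2 scale (adjusted p = 0.00887 from limma). These were the 3 that passed, with changes in both directions, beside 2.62% of all genes tested. The threshold of the study was met by 4 genes of the list that were higher and 2 that were lower, beside 8.8% of all genes tested. Krt8 and Myc kept their calls in all 8 fits with a library left out, and Rerg in 3 of 8, those without Nr2f2 f/f replicate 2, Nr2f2 d/d replicate 3 or 4. Without Nr2f2 f/f replicates 1 and 2 the adjusted p from limma was 0.0703 for Krt8, 0.0657 for Rerg and 0.0613 for Myc, with log2 fold changes of 0.68, 1.18 and -0.84.

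Of 20 genes that estrogen induces in the uterus itself, 2, Sprr2a1 and Sprr2a2, near-identical copies whose counts are uncertain, were listed at 0 in all 8 libraries. A further 1 fell under the filter on low values. Of the 17 tested, 15 were above 0 and 2 below, with a median log2 fold change of 1.86, which is the value of Padi2. The list was chosen with earlier results of these data known. Of the 17, 2 passed the adjusted test, beside 2.62% of all genes tested. Both were peptidylarginine deiminases, enzymes that turn arginine in proteins into citrulline. The threshold of the study was met by 8, all higher, beside 8.8% of all genes tested, 4.7% higher. Padi2 rose from 8.77 ± 2.23 to 33.0 ± 6.81 FPKM and Padi1 from 6.22 ± 2.44 to 35.7 ± 21.7 FPKM (SD, n = 4 each, adjusted p = 0.00711 and 0.0292 from limma). Padi2 kept its call in all 8 fits with a library left out, and Padi1 in 3 of 8, those without Nr2f2 f/f replicate 3, Nr2f2 d/d replicate 3 or 4. Without Nr2f2 f/f replicates 1 and 2 the log2 fold changes were 1.65 and 2.39 (adjusted p = 0.0657 and 0.132 from limma). Inhbb, an activin subunit, had 2.52 ± 1.69 FPKM in Nr2f2 f/f and 11.0 ± 7.14 FPKM in Nr2f2 d/d (SD, n = 4 each, adjusted p = 0.0626 from limma). The values of 3 secreted or surface products were looked at after their pattern was seen. Ltf, lactoferrin, was at 11.9, 13.6, 407 and 13.9 FPKM in Nr2f2 f/f and at 898, 314, 823 and 51.4 FPKM in Nr2f2 d/d. Lcn2, lipocalin 2, was at 29.4, 13.8, 145 and 7.78 FPKM in Nr2f2 f/f and at 199, 89.8, 452 and 18.8 FPKM in Nr2f2 d/d. Muc1, a surface mucin, was at 16.1, 15.3, 24.3 and 16.5 FPKM in Nr2f2 f/f and at 53.7, 32.4, 66.9 and 22.1 FPKM in Nr2f2 d/d. In Nr2f2 d/d these 3 were highest in replicates 1 and 3, the pair that was also highest for Greb1 and Stc2. In Nr2f2 f/f they were highest in replicate 3, where Greb1 and Stc2 were not the highest of their group. Over the whole list the mean log2 value was 2.96 to 5.04 in Nr2f2 f/f and 4.21 to 6.40 in Nr2f2 d/d, and the groups overlapped. The part of this library pattern in the values of Greb1 and Stc2 was not tested.

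**Figure D4:**
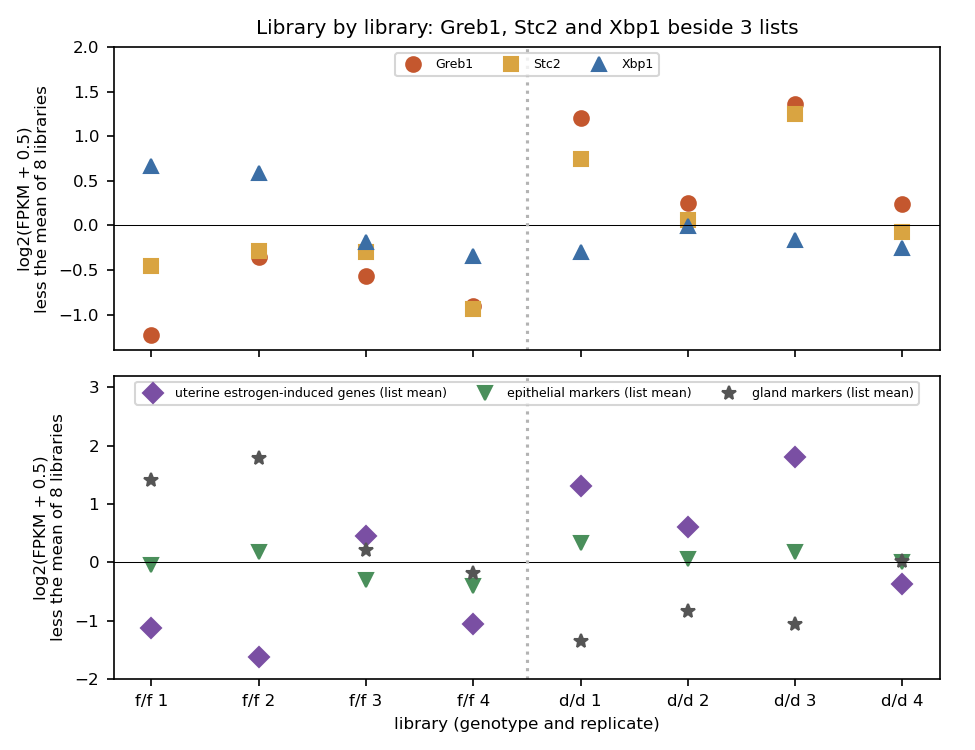
Log2(FPKM + 0.5) of Greb1, Stc2 and Xbp1 (upper panel) and the mean over the tested genes of 3 lists (lower panel) in each of the 8 libraries, each less its own mean over the libraries. Greb1, Stc2 and the uterine estrogen-induced genes are highest in Nr2f2 d/d replicates 1 and 3, and Xbp1 and the gland markers in Nr2f2 f/f replicates 1 and 2.

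Of 22 progesterone-induced genes of the uterus, all tested, 15 were below 0, and the median log2 fold change was -0.21. Hand2, a stromal transcription factor, passed the adjusted test and fell by 0.71 on the log2 scale (adjusted p = 0.0388 from limma). It kept that call in only 2 of the 8 fits with a library left out, those without Nr2f2 d/d replicate 3 or 4, the adjusted p reached 0.108 in the others, and without Nr2f2 f/f replicates 1 and 2 the log2 fold change was -0.61 (adjusted p = 0.178 from limma). Fst, which encodes the activin antagonist follistatin, and Ptch1, the hedgehog receptor, had -0.92 and -1.20 (adjusted p = 0.0783 and 0.0792 from limma) and did not overlap between the groups.

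Of 17 paralogs of the classical targets 12 were tested, 0 passed an adjusted p of 0.05 in limma, 0 met the threshold of the study, and the median log2 fold change was -0.0022, with 1 unadjusted p under 0.05, that of Elovl6. Slc9a3r2, the paralog of Slc9a3r1, had 37.0 ± 2.37 FPKM in Nr2f2 f/f and 37.5 ± 2.19 FPKM in Nr2f2 d/d (SD, n = 4 each). Greb1l, the paralog of Greb1, had 1.43 ± 0.367 and 1.36 ± 0.332 FPKM, and Stc1, that of Stc2, 2.59 ± 1.56 and 3.61 ± 1.83 FPKM. Siah1a and Mybl2, relatives of Siah2 and Myb, had log2 fold changes of -0.03 and 0.0046.

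**Figure D5:**
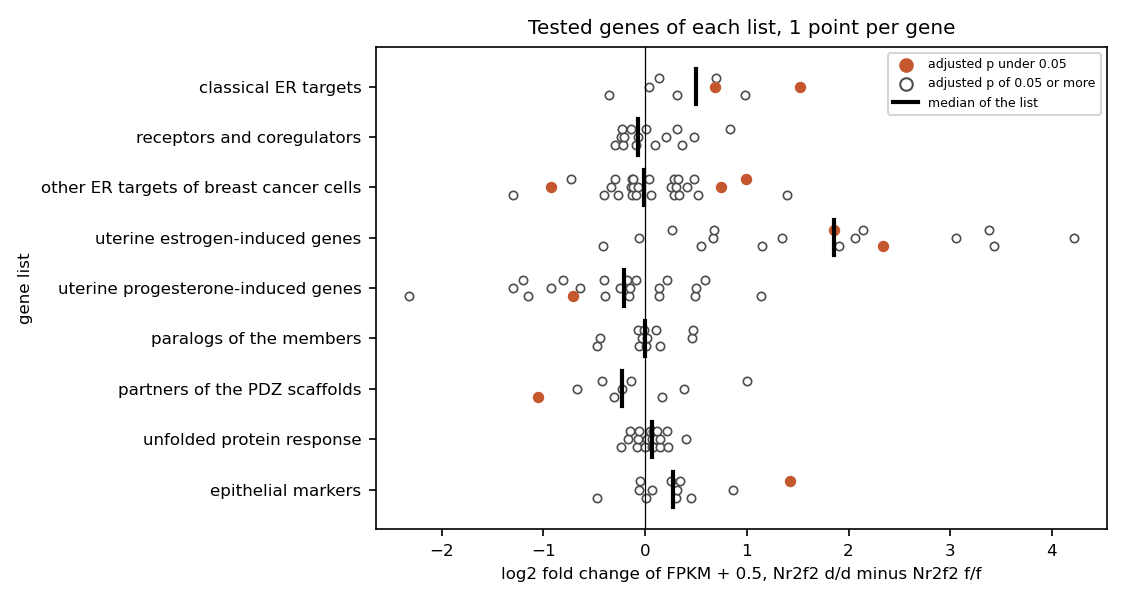
Log2 fold change of FPKM plus 0.5, Nr2f2 d/d minus Nr2f2 f/f, of each tested gene in 9 lists, 1 point per gene, filled where the adjusted p is under 0.05, with the median of each list as a black bar. The median is 0.50 for the 8 classical targets, 1.86 for uterine estrogen-induced genes and -0.01 for the other targets known from breast cancer cells. The lists were chosen with earlier results of these data known.

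The gene most like each target over the 8 libraries was found among all genes tested by Pearson's r of the log2 values, which is given as a description, since the libraries share the difference between genotypes and the best of so many genes is always close. For Slc9a3r1 it was Ap1m2 (0.996), the epithelial subunit of a clathrin adaptor, with 19.6 to 22.0 FPKM in Nr2f2 f/f and 25.9 to 29.2 FPKM in Nr2f2 d/d. For Greb1 it was Cysltr2 (0.982), a leukotriene receptor gene, with 0.676 to 0.883 and 0.953 to 1.58 FPKM. The genes most like the others were Syngr2 for Stc2 (0.987), Nmi for Nrip1 (0.987), Rnaseh1 for Xbp1 (0.978), Eri3 for Pdzk1 (0.971), Xdh for Siah2 (0.966) and Rnf19a for Myb (0.963). No classical target was the nearest gene of another.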

How the data were processed

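RNA of whole uteri was sequenced as 76-bp paired-end reads. The authors trimmed adaptors with cutadapt 1.12, aligned to mm10 with STAR 2.5.2b and counted fragments per gene with featureCounts 1.5.0-p1; the submitters' processing notes also name Cufflinks 2.0.2. They deposited FPKM, rounded to 3 decimals, of 24963 genes in 8 libraries. Annotation, strand setting and FPKM formula are not given in the sources used here. FPKM are relative to the library total, so very abundant transcripts shift the others.

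Groups and replicate numbers came from the sample titles, which number the replicates otherwise than the table columns do, and columns were matched to samples by name. The 14323 genes that averaged 0.5 FPKM or more were tested on log2(FPKM + 0.5) with limma 3.58.1 in R 4.3.3 (lmFit, eBayes with trend, two-sided) and Benjamini-Hochberg adjustment, in place of the study's test of counts. For single genes an exact permutation test (two-sided, 70 arrangements) cannot give a p below 0.0286. The fit was tested on simulated data with 100 genes changed 2-fold and 100 changed 4-fold. It recovered 78 and 94 of these, and 13 of its 185 calls were wrong. The simulated noise was independent between genes and held no pattern shared by a library.

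Library totals of 61150000 to 92700000 fragments were those at which 86.2% to 92.2% of low values of short 1-exon genes came out whole, within 0.1 of a fragment, where totals further away gave at most 60.4% to 87.4%. Coordinates and exon lengths are from GENCODE vM21. Ca12 and Ccn5 were matched as Car12 and Wisp2. The genes, the lists and the tests were chosen with earlier results of these data known. The text names all 10 targets, Nr2f2, Esr1 and Pgr, the gene most like each target and, by rule, the 3 smallest p of each other list, though for the paralogs, the cell type markers and the unfolded protein response not all 3 are printed; Ltf, Lcn2, Muc1, Hspa5, Dnajb9, Sdf2l1, Esr2, Foxa1, Foxa2, Gata3, Kdr, Sprr2a1, Sprr2a2, Cxcl15, Tff2, Tff3 and the paralogs were added after their values were seen. Alternatives were other added values, filters and scalings, eBayes without trend or robust, a block for the replicate number, and libraries left out.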

Additional observations from a re-analysis of the deposited data

Results flagged for a closer look

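Among 13 genes, the classical targets with Nr2f2, Esr1 and Pgr, 25 groups of 4 libraries with any spread were examined for a library far from the other 3, by a rule that chance meets in about 1 in 20 groups, and 3 libraries met it. Elovl2 was at 0.623 FPKM in Nr2f2 f/f replicate 1, where the other 3 Nr2f2 f/f libraries held 0.266 to 0.316 FPKM. Tff1 was at 0.034 FPKM in Nr2f2 f/f replicate 2 and at 0 in the other 3, a difference of 1.46 fragments at the exon length of GENCODE. The rule is always met where only 1 library of a group is above 0, so the rate of 1 in 20 does not apply to Tff1. Nr2f2 was at 6.90 FPKM in Nr2f2 d/d replicate 3, where the other Nr2f2 d/d libraries held 9.42 to 9.74 FPKM, and the same library held the highest Greb1, Stc2 and Pdzk1 and the lowest Myb and Elovl2 of its group.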

How the results depend on the processing

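The count of 2 classical targets past an adjusted p of 0.05 was unchanged with 0.1 or 1 added before the log2, with quantile or median-ratio scaling, with a filter at 1 FPKM and with both other forms of eBayes. It was 1 with no filter on low values, where Greb1 had an adjusted p of 0.0683 from limma over more genes tested, and from 0 to 2 when single libraries were left out. With the replicate number as a block it was 0, and 1 gene passed among all genes in place of 375. By the numbers of the sample titles, same-numbered libraries did not deviate together (correlations of -0.20, -0.17, 0.05 and -0.04), and 0 of 8 libraries correlated best with its own number. The table columns carry other numbers, and 3 of them are in both groups (correlations of -0.20, 0.15 and -0.04). A block for these, added after the data were seen, gave a count of 0 over 6 libraries, where the same 6 without the block gave 1, Slc9a3r1. Neither numbering met the bar for pairing. Counts in other lists moved both ways when single libraries were left out. They were 0 to 3 for the PDZ partners (1 over all libraries) and 0 to 2 for progesterone-induced genes (1). They were 0 to 4 for stromal markers (2) and for endothelial markers (4), and 1 to 3 for uterine estrogen-induced genes (2). Without Nr2f2 f/f replicate 2 the uterine estrogen-induced count was 2, with another gene in place of Padi1. Of the paralogs, 1 passed with no filter in place of 0. With no filter Hand2, Elf3, Kdr and Col1a2 had an adjusted p of 0.0514, 0.0585, 0.0603 and 0.0715, and under the block by title number Padi2 alone of the called genes named from other lists kept its call (0.0223), all from limma. Without Nr2f2 f/f replicates 1 and 2 together the count was 0, Pdzk1 had a log2 fold change of -0.013 and Xbp1 of 0.087. With 1 library left out, 42 to 347 of all genes passed, and the log2 fold change of Siah2 ranged from -0.011 to 0.11. The 4 targets past the threshold of the study, Greb1, Slc9a3r1, Stc2 and Myb, were the same in every alternative, with Xbp1 added, lower, without Nr2f2 f/f replicate 4. The median log2 fold change of the targets was 0.37 to 0.55 in all alternatives but 1, that with no filter (0.22), which brings in Elovl2 and Tff1. The number of targets whose groups did not overlap was 4 or 5, and 2 or 3 relative to the epithelial markers. The 5 and the 3 came only where a library was left out, and groups of fewer libraries come apart more easily. With all 8 libraries the share of all genes tested was 15.4%, and 20.9% relative to the markers. That share is not given for the other settings. The cause of these changes was not tested. Tff1 was not detectable at this depth in Nr2f2 d/d, and Elovl2 was left out of the test by the filter at 0.5 FPKM.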
